A study of Mus musculus with 10 samples.

Results

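Endothelial nuclei of the mouse brain were chosen by their measured levels of 8 marker genes, counted in unique molecular identifiers (UMIs, counted RNA molecules): Flt1, Cldn5, Slco1a4, Ly6c1, Ptprb, Ly6a, Gpr116 and Abcb1a. A nucleus was a member when it held at least 3 UMIs from at least 2 of these genes, when they made up at least 0.3% of its UMIs, and when they outnumbered the UMIs of 5 mural cell genes, Rgs5, Vtn, Pdgfrb, Kcnj8 and Abcc9. The rule gave 398 endothelial nuclei of 11624, or 3.42% (exact 95% interval 3.10% to 3.77%, counting error only). They held 6.38% of all UMIs. Nuclei came from hippocampus and from prefrontal cortex, dissected from C57BL/6 mice with no treatment named, frozen and profiled by DroNc-seq, in which droplets pair single nuclei with barcoded beads. There were 5 hippocampus and 5 cortex libraries. The title number names a unit, and libraries that share number and region were added up into 1 unit, leaving 4 units per region, 0 to 3. The labels give no age and do not tie a number to a mouse, so p-values measure the spread between units, which may be technical.

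The endothelium of brain capillaries forms the blood-brain barrier. Its cells are sealed to each other by tight junctions, take up glucose, amino acids, lipids and iron through dedicated carriers, and pump many drugs back into the blood. Wnt ligands and Norrin from neighbouring cells induce and maintain this state, while VEGF, angiopoietin, Notch and BMP signals set vessel growth, quiescence and arterial or venous identity. Pericytes and smooth muscle cells, together called mural cells, lie directly on the endothelium and share its basement membrane.

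Membership was set by the gate genes, and their values only describe it. Flt1, a VEGF receptor, was seen in 93.2% of endothelial nuclei, at a median depth of 1954 UMIs, and in 2.77% of all other nuclei, at a median of 1185 UMIs. The range over the 8 genes was 81.9% to 93.2% in endothelial nuclei and 1.46% to 3.71% in all other nuclei. All 8 genes were seen together in 240 of the 398 nuclei. Just inside the gate, the 20 nuclei with 3 gate UMIs had a median gate share of 0.555% of UMIs. Just outside it, 45 nuclei with 2 gate UMIs from 2 genes had a median of 0.444%. The gate needs a minimum of UMIs, which shallow nuclei reach less easily. The 20 nuclei with 3 gate UMIs had a median of 540.5 UMIs in all. The 313 with a gate share of at least 1% had a median of 2140. The part of this minimum in the difference in depth was not tested.

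The gate did not give pure endothelial RNA. At least 1 mural gate UMI was present in 350 of the 398 nuclei, and 225 also met the thresholds of a mural gate of the same form. Rgs5, a defining pericyte gene, was seen in 87.2% of endothelial nuclei at 5687 CPM (the gene's share of all UMIs, as counts per a fixed library total) pooled over nuclei, in 97.2% of the 36 mural nuclei at 5774 CPM, and in 4.90% of all other nuclei at 56.3 CPM. Of 12 mural markers outside the gate, 9 were tested and all 9 were higher in endothelial than in all other nuclei, with a median log2 difference of 5.31. Their summed level ran from 957 to 1876 CPM over endothelial units and from 38.3 to 96.1 CPM over the other nuclei, and none of the 12 was at 0 in endothelial nuclei. The gate genes set the label and do not test it; endothelial genes outside the gate are described below. Mural RNA was present in most members, and its part in the results below was not tested. Neuronal RNA was low in most members and high in some. The 9 pan-neuronal markers made up a median of 0.265% of UMIs in the 313 nuclei with a gate share of at least 1%, 3.78% in the 85 below it and 6.08% in all other nuclei. Those 85 made up 37.1% and 29.1% of the endothelial nuclei in unit 0 of hippocampus and cortex, against 3.33% to 13.5% in the 6 units numbered 1 to 3. Libraries of number 0 stood apart from the others in both regions, where a chi-square over genes, divided by its degrees of freedom, came to 4.27 to 7.35 against 1.36 to 1.75 among numbers 1 to 3. Doublet calls took in 47 of the 398 endothelial nuclei (11.8%) and 259 of all 11624 (2.23%), and no pair of libraries shared more than 3 barcodes.

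**Figure D1:**
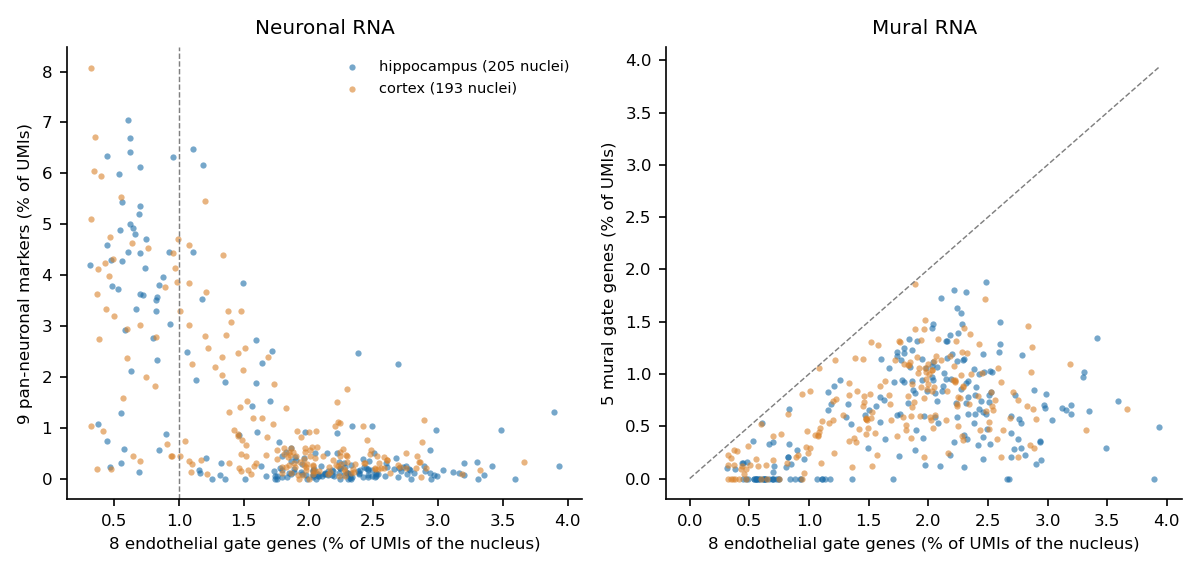
Each point is 1 of 205 hippocampus or 193 cortex endothelial nuclei. The horizontal axes give the share of UMIs from the 8 gate genes, and the vertical axes the share from 9 pan-neuronal markers (left) or 5 mural gate genes (right), all in percent of the UMIs of the nucleus. The dashed lines mark a gate share of 1% and equal endothelial and mural sums. Nuclei with a small gate share had the most neuronal RNA, and those with a large one nearly all carried mural RNA below the line.

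The share of endothelial nuclei was 4.42%, 2.84%, 2.26% and 3.94% in hippocampus units 0 to 3, and 5.77%, 2.34%, 2.83% and 2.33% in cortex units 0 to 3. The ranges overlapped. The means were 3.37% ± 0.991 in hippocampus and 3.31% ± 1.65 in cortex (SD, n = 4 each), a difference of 0.0527 percentage points (exact two-sided permutation test over 70 assignments, p = 0.971). The sign of this difference turned to -0.2385 with a stricter gate.

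Summed endothelial UMIs were compared with those of all other nuclei of the same unit, with the 13 gate genes left out. CPM per unit are adjusted by the scaling factors of the comparison they are given for, so the CPM of a gene in a unit differ somewhat between this comparison and that of regions. Carriers, surface glycoproteins, growth factor receptors and transcription factors of vascular endothelium were far more abundant in endothelial nuclei, and neuronal markers were lower. Of 10577 genes tested, 3006 were higher (28.4%) and 4229 lower (40.0%) by edgeR's quasi-likelihood test at a Benjamini-Hochberg adjusted p under 0.05. The median log2 difference over all tested genes was -0.25, and -0.51 under DESeq2's scaling. The 16 lists of endothelial pathways hold 295 genes, 293 of them in the table. Of the 246 tested, 209 were higher and 16 lower, with a median of 3.66 on the log2 scale. The filter on low counts lets a gene in through the class where it is high, so these counts describe the tested members and not all members. The corresponding counts were 210 and 13 of 244 in nuclei with a gate share of at least 1%, and 199 and 17 of 244 in the 295 nuclei with at least 2 endothelial gate UMIs per mural gate UMI. With units 0 left out they were 200 and 16 of 243. Over all genes, 2430 were higher and 4869 lower with DESeq2, and 3376 and 3842 of 10471 at a gate share of at least 1%. In the 295 nuclei they were 2443 and 4172 of 10492, and with units 0 left out 2718 and 3615 of 10324. Of the 246 pathway members, 199 were higher and 16 lower with DESeq2, and 31 were not called. None of the 225 called members changed sign under DESeq2 or library size only, which folds of this size could hardly do.

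**Figure D2:**
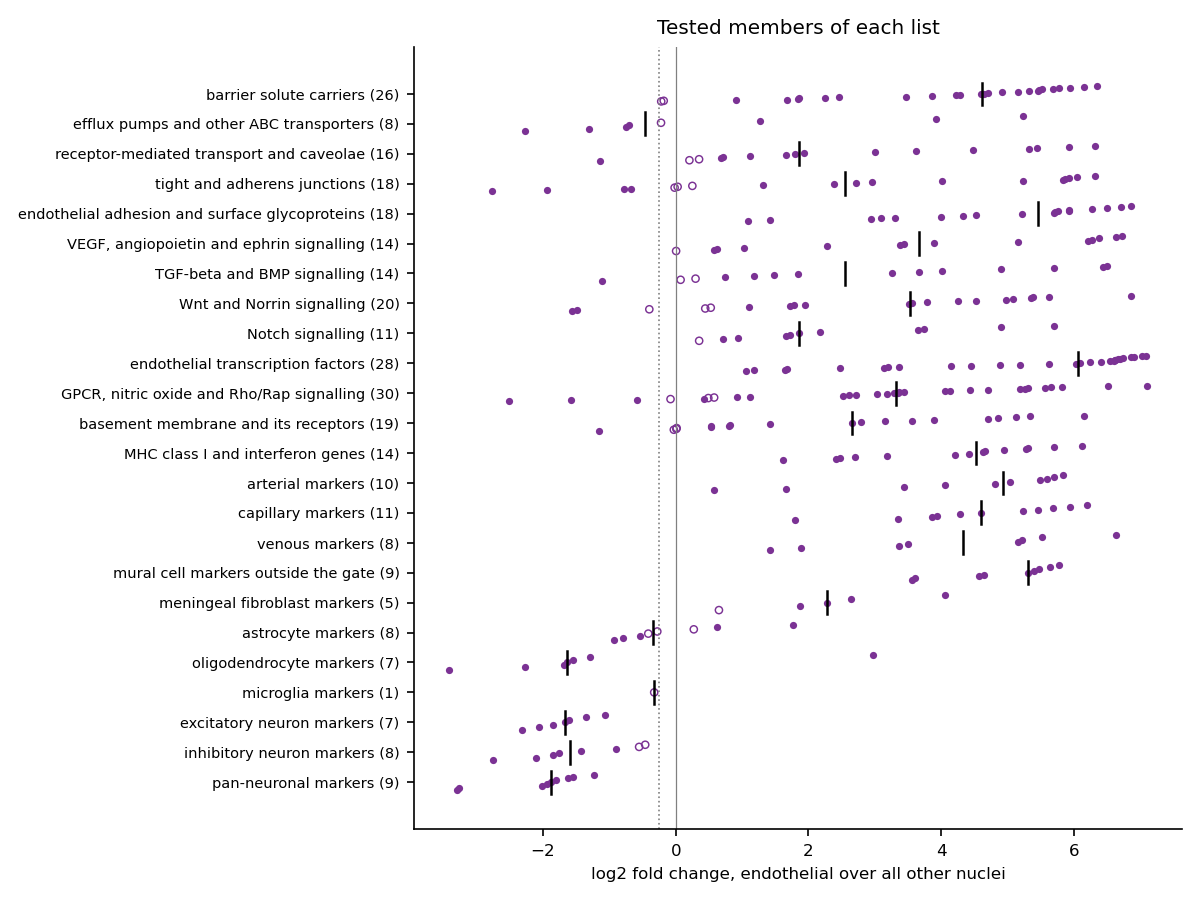
Each point is 1 tested gene, placed by its log2 fold change of endothelial over all other nuclei, with the number tested in brackets. Filled points passed an adjusted p of 0.05, black bars are list medians and the dotted line is the median of all 10577 genes (-0.25). Transcription factors (6.06) and adhesion genes (5.46) had the largest medians among the pathway lists, the mural list stood at 5.31 and the neuronal lists lay left of the dotted line.

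Solute carriers of the barrier gave the most even picture of the transport lists. Of 28 in the list, 26 were tested, 24 were higher and 0 lower, with a median of 4.62. Slc2a1, the glucose transporter GLUT1 (chr4:119108711-119137983, GRCm38), ran from 1825 through a median of 2228 to 2524 CPM over the 8 endothelial units, against 25.7, 32.4 and 61.9 CPM in the other nuclei. Every endothelial unit lay far above every other unit, and the log2 fold change was 5.94 ± 0.17 (SE; adjusted p = 2.3e-27). Slc7a5, the LAT1 carrier of large neutral amino acids, averaged 933 ± 149 CPM in endothelial and 17.3 ± 4.65 CPM in other nuclei (SD, n = 8 units each). Slc40a1, the iron exporter ferroportin, averaged 353 ± 73.5 and 4.40 ± 2.37 CPM in endothelial and other nuclei. Slc22a8, an organic anion transporter, averaged 386 ± 130 and 8.50 ± 3.30 CPM. Mfsd2a, which carries lysophospholipids with docosahexaenoic acid, averaged 278 ± 70.9 and 11.3 ± 7.55 CPM, a log2 difference of 4.60. Vitamin carriers had few UMIs: Slc52a3, for riboflavin, gave 72 in endothelial and 10 in all other nuclei, and Slc19a3, for thiamine, 112 and 25. As endothelial nuclei held 6.38% of all UMIs, these unscaled counts understate the relative level there. The exceptions were Slc29a1 at -0.18 and Spns2 at -0.22, neither of which passed (adjusted p = 0.53 and 0.41). Slc9a3r2 has a carrier-like symbol but encodes a scaffold protein, NHERF2. It rose by 4.71 on the log2 scale.

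ABC transporters did not move as 1 group. Of 11, 8 were tested, 3 were higher and 4 lower. Abcg2, the breast cancer resistance protein and a main drug efflux pump of brain capillaries, ran from 709 through 905 to 1081 CPM in endothelial units, against 15.2, 24.9 and 31.4 CPM in other nuclei. Its log2 fold change was 5.23 ± 0.17 (adjusted p = 3.2e-26). Abcc4, which exports organic anions and nucleotides, rose by 3.92 ± 0.21. Abcc5 fell by 2.27 on the log2 scale, with 114 ± 62.0 CPM in endothelial and 558 ± 89.8 CPM in other nuclei. The cholesterol exporter Abca1 rose by 1.27 ± 0.27 against all other nuclei, but had a value of -0.30 against other non-neuronal nuclei, which did not pass (adjusted p = 0.28). Abcb1b, Abcc3 and Abcc6 had 8, 3 and 34 endothelial UMIs and were not tested. Abcb1b is a close copy of the gate gene Abcb1a, and reads may be split between them.

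Genes of receptor-mediated transport and caveolae, the flask-shaped membrane pits, were higher for 13 of 16 tested and lower for 1, out of 20 listed. Pltp, the phospholipid transfer protein, was the most abundant, with 1970, 2453 and 3563 CPM as the lowest, median and highest endothelial unit against 16.4, 34.1 and 59.0 CPM in the other nuclei. Its log2 fold change was 6.32 ± 0.18 (adjusted p = 1.95e-27). The caveolar coat genes Cav1, Cav2, Ptrf (cavin 1) and Sdpr (cavin 2) rose by 5.45, 4.48, 5.92 and 5.32. Receptors that carry cargo across the barrier differed less. Tfrc, the transferrin receptor, averaged 413 ± 135 CPM against 114 ± 23.0 CPM in other nuclei, a log2 difference of 1.79, and Insr, the insulin receptor, differed by 1.66. Lrp1, a large lipoprotein receptor, was the member that fell, with a log2 difference of -1.14. Plvap, a marker of leaky fenestrated endothelium that the mature barrier lacks, had 4 UMIs in endothelial and 258 in all other nuclei and was not tested. These counts are not scaled, and endothelial nuclei held 6.38% of all UMIs.

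Junction genes split by member. Of 22, 18 were tested, 11 were higher and 4 lower, with a median of 2.55. Ocln, the tight junction protein occludin, had 188, 277 and 446 CPM as the lowest, median and highest endothelial unit against 2.71, 5.04 and 8.03 CPM in the other nuclei (5.83 ± 0.18; adjusted p = 1.2e-26). The adherens junction cadherin Cdh5, the tricellular junction protein Lsr and the junction adaptor Cgnl1 rose by 6.32, 5.86 and 6.05. Tjp1, the ZO-1 scaffold that other cells also use, rose by 2.72, while the scaffold Magi1 fell by 1.94. Cgn had 4 UMIs in endothelial nuclei against 367 in all other nuclei, a log2 difference of -2.77. Jam3 and Cdh13 also fell, with differences of -0.67 and -0.77.

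All 18 tested adhesion and surface genes, of 22 listed, were higher, with a median of 5.46. Pecam1 (CD31, chr11:106654217-106750628) averaged 544 ± 130 CPM in endothelial and 4.15 ± 3.59 CPM in other nuclei, a log2 difference of 6.86 ± 0.22. Emcn (endomucin), Podxl (podocalyxin), Esam and Eng (endoglin) rose by 6.26, 5.93, 5.93 and 6.49. Genes of inflamed endothelium were near or at 0: Sele and Selp had 0 UMIs in 1289848 endothelial UMIs, which allows up to 3 UMIs each. Vcam1 averaged 27.6 ± 24.6 CPM against 12.3 ± 6.00 CPM in other nuclei, and was higher in 5 of 8 units.

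**Figure D3:**
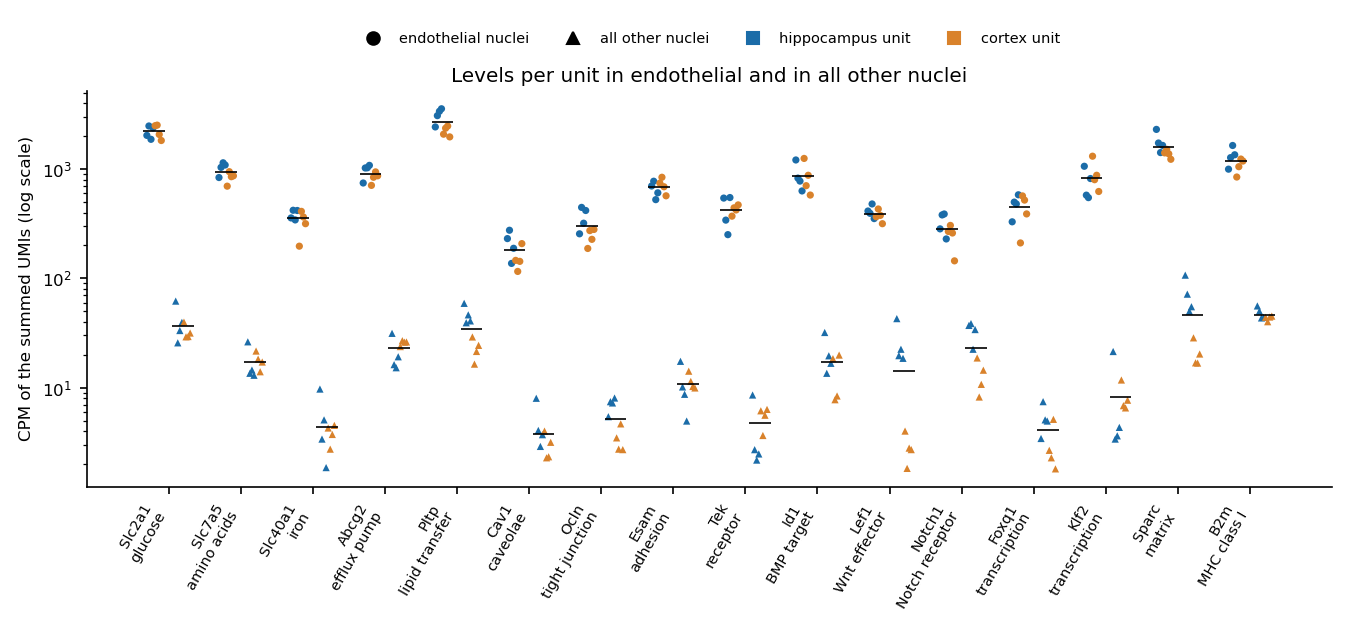
The vertical axis is CPM of the summed UMIs on a log scale. For each of 16 genes, circles on the left are the 8 endothelial units and triangles on the right the same units' other nuclei, coloured by region, with the mean as a line. In all 16 genes every endothelial unit lay above every unit of the other nuclei.

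Receptors of vascular growth were high. Of 21 genes in the list of VEGF, angiopoietin and ephrin signalling, 14 were tested, 13 were higher and 0 lower. Kdr, the main VEGF receptor, averaged 362 ± 69.98 CPM in endothelial and 4.77 ± 3.95 CPM in other nuclei (6.20 ± 0.23; adjusted p = 2.4e-24). The angiopoietin receptor Tek, its partner Tie1 and the guidance receptor Robo4 rose by 6.37, 6.64 and 6.72. Pdgfb, the ligand by which endothelium recruits pericytes, averaged 185 ± 37.9 and 15.9 ± 5.04 CPM in endothelial and other nuclei. The secreted proteins Esm1, Apln and Angpt2 had 1, 2 and 18 UMIs in endothelial nuclei and were not tested.

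In TGF-beta and BMP signalling, 11 of 14 tested genes were higher and 1 lower, of 18 listed. Acvrl1, the endothelial BMP receptor ALK1, ran from 244 through 360 to 433 CPM in endothelial units, against 0.618, 1.92 and 9.70 CPM in other nuclei. The BMP target genes Id1 and Id3 averaged 857 ± 251 and 1058 ± 126 CPM in endothelial nuclei, against 17.0 ± 7.67 and 69.6 ± 27.1 CPM. Ltbp4, which anchors latent TGF-beta, rose by 3.66, and the activin receptor Acvr2a had a log2 difference of -1.11.

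Wnt and Norrin genes were higher for 15 of 20 tested and lower for 2, of 22 listed. The receptors Fzd6 and Fzd4 rose by 5.63 and 4.98, and the co-receptor Lrp5 by 4.53. Ctnnb1, which encodes beta-catenin, averaged 947 ± 139 CPM against 79.4 ± 8.61 CPM in other nuclei. Its partner Lef1 ran from 316 through 385 to 479 CPM in endothelial units, against 1.82, 11.3 and 42.8 CPM in other nuclei. The pathway's feedback targets Nkd1, Notum and Axin2 rose by 5.36, 5.38 and 1.72. Sox17, placed in this list and among transcription factors, rose by 6.86. Lgr4 and Bcl9 fell, with log2 differences of -1.57 and -1.49.

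Of 14 Notch genes, 11 were tested, 10 were higher and 0 lower, with a median of 1.86. The endothelial ligand Dll4 and the receptor Notch4 rose by 5.70 and 4.90. Notch1 averaged 282 ± 79.1 and 23.0 ± 12.1 CPM in endothelial and other nuclei. Jag1, a ligand, and Hes1, a target gene, rose by 3.74 and 2.17.

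Transcription factors had the largest median of the pathway lists, 6.06, with 28 of 28 tested genes higher, of 32 listed and 31 in the table. The ETS factors Erg, Fli1 and Ets1 averaged 304 ± 51.3, 280 ± 65.9 and 492 ± 108 CPM in endothelial nuclei, against 2.00 ± 2.63, 2.45 ± 1.25 and 7.46 ± 2.08 CPM in other nuclei. Foxq1, a forkhead factor of brain endothelium, had 211, 489 and 582 CPM as the lowest, median and highest endothelial unit, against 1.80, 4.18 and 7.44 CPM (6.74 ± 0.19; adjusted p = 1.3e-27). Klf2, induced by blood flow, ran from 548 through 809 to 1312 CPM in endothelial units, against 3.38, 6.68 and 21.4 CPM. Epas1, which encodes the hypoxia factor HIF-2 alpha, rose by 6.24.

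Of 31 genes of G-protein, nitric oxide and small GTPase signalling, 30 were tested, 24 were higher and 3 lower. Eltd1, an adhesion G-protein-coupled receptor, rose by 7.10 ± 0.23, with 737 ± 86.0 CPM in endothelial and 4.76 ± 3.77 CPM in other nuclei. Ramp2, which makes the calcitonin-like receptor respond to adrenomedullin, the G-protein subunit Gng11 and the Ras/Rap regulators Rasip1 and Rasgrp3 rose by 5.26, 5.31, 5.82 and 4.70. Nos3, the endothelial nitric oxide synthase, averaged 187 ± 33.9 and 3.20 ± 2.24 CPM in endothelial and other nuclei. Tnik, Rasgrf2 and Rapgef5 fell, with log2 differences of -2.51, -1.58 and -0.59.

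Basement membrane genes and their receptors were higher for 15 of 19 tested and lower for 1, of 20 listed. Sparc, a secreted matrix protein, ran from 1229 through 1465 to 2307 CPM in endothelial units, against 16.8, 39.2 and 107 CPM in other nuclei. The laminin chain Lamb2, the nidogen Nid1 and multimerin Mmrn2 rose by 4.70, 5.12 and 6.15. The collagen IV genes Col4a1 and Col4a2 rose less, by 1.42 and 0.54. Col4a3bp is in the list by its symbol, but encodes a ceramide transfer protein, and rose by 2.66. Nid1, given as 1 example, stood at 137 CPM in the 36 mural nuclei, with 11 UMIs, and 110 CPM in all endothelial nuclei pooled. Its log2 difference was 4.41 in the nuclei with at least 2 endothelial gate UMIs per mural gate UMI. The part of mural RNA in these differences was not tested.

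All 14 tested MHC class I and interferon genes, of 15 listed, were higher, with a median of 4.52. B2m, the light chain of MHC class I, averaged 1198 ± 243 CPM in endothelial and 45.8 ± 4.90 CPM in other nuclei (4.66 ± 0.15; adjusted p = 3.5e-26). The heavy chains H2-D1 and H2-K1 rose by 4.42 and 4.62, and the antiviral membrane proteins Ifitm2 and Ifitm3 by 4.94 and 5.70. Each of these pairs has close copies in the genome, so its reads may be divided between them. Irf7, an interferon regulator, gave 74 UMIs in endothelial and 14 in all other nuclei.

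Arterial, capillary and venous markers were all present. The 10 arterial, 11 capillary and 8 venous markers tested, of 16, 12 and 14 listed, were all higher, with medians of 4.92, 4.60 and 4.33. Capillary markers had the highest summed level, 9922 to 12973 CPM over endothelial units, against 1358 to 2684 CPM for arterial and 617 to 1083 CPM for venous markers. The chemokine Cxcl12 ran from 1606 through 2119 to 2597 CPM in endothelial units, against 13.7, 26.8 and 52.2 CPM in other nuclei. Gkn3, an arterial marker, was uneven, at 378 ± 287 CPM and from 74.1 to 747 CPM over units. The venous regulator Nr2f2 and von Willebrand factor, Vwf, averaged 152 ± 40.0 and 119 ± 55.9 CPM in endothelial nuclei, against 15.6 ± 5.64 and 2.77 ± 1.39 CPM. At least 2 capillary UMIs were present in 363 of 398 nuclei, 2 arterial UMIs in 225 and 2 venous UMIs in 178. Both arterial and venous UMIs at this threshold were present in 138 nuclei, so these counts did not separate single nuclei by vessel segment.

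Regardless of list, the 15 largest rises among genes of at least 50 CPM ran from 6.79 to 7.70 on the log2 scale. They included the adhesion gene Pecam1, the transcription factors Erg, Sox17, Tbx1 and Foxl2, and the receptor Eltd1. Itm2a, a type II membrane protein, was the most abundant of them, with 2699, 3908 and 4333 CPM as the lowest, median and highest endothelial unit, against 22.3, 28.1 and 66.7 CPM in other nuclei. Pglyrp1, a peptidoglycan recognition protein, ran from 322 through 543 to 786 CPM in endothelial units, against 0.911, 2.91 and 11.98 CPM. The Schlafen gene Slfn5, the membrane protein Tmem204, the small heat shock protein Hspb1, the adaptor She and Ushbp1 rose by 7.21, 6.93, 6.84, 6.79 and 6.84. Car5a, a mitochondrial carbonic anhydrase, had 89 UMIs in endothelial and 5 in all other nuclei, Tbx1 59 and 3, Foxl2 57 and 5, and Sigirr, an inhibitory interleukin receptor, 107 and 10. The size of these last 4 folds rests on few UMIs in the other nuclei.

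ETS factors bind DNA around a GGAA core, and several were among the genes above, so promoters of the genes that rose were searched for the letters CAGGAAG (ETS) and ATCAAAG (TCF/LEF, the factors of Wnt signalling) on both strands. The window ran from 250 bases before to 50 after a RefSeq start (GRCm38.p6), and 57 of the genes that rose and are named here matched the table. The ETS letters were in 9 of the 57 (15.8%), against 12.96% of 27025 promoters, and the TCF/LEF letters in 2 (3.51%), against 3.72%. These shares lie near those of all promoters. The 3 promoters below belong to the genes with the largest rises that hold the ETS letters, at chr7:18884440-18884739 on the plus strand, chrX:107403311-107403610 on the minus strand and chr8:71395752-71396051 on the minus strand. They are written 5′ to 3′ along the gene, with the match in capitals. In each the match is CTTCCTG, the letters of the opposite strand. A match is a description of the letters and not a binding site.
Pglyrp1: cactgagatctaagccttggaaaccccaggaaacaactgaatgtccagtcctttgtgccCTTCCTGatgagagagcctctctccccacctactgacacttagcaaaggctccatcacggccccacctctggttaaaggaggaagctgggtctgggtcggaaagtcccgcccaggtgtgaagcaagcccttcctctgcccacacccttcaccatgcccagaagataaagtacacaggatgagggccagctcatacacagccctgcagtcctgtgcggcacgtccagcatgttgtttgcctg
Itm2a: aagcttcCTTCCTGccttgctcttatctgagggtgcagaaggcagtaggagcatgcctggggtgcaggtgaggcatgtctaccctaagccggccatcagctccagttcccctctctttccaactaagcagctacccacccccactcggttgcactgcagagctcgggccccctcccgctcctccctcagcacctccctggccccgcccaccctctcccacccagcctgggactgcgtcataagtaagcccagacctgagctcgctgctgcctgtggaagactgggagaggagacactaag
Ushbp1: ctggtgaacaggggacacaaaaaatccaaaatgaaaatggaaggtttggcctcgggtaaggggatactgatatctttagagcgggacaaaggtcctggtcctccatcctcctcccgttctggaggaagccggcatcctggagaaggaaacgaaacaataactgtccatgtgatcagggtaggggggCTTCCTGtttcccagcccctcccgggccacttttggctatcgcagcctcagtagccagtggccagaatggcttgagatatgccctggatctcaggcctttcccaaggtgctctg

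Neuronal markers were lower in endothelial nuclei. All 9 tested pan-neuronal and 7 excitatory markers fell, as did 6 of 8 inhibitory markers, with medians of -1.87, -1.67 and -1.59. The long noncoding RNA Meg3 ran from 1049 through 4283 to 11537 CPM in endothelial units, against 29177, 37972 and 46488 CPM in other nuclei. Snhg11, another noncoding RNA of neurons, averaged 2342 ± 1525 and 19599 ± 3592 CPM in endothelial and other nuclei. Coro6, a coronin, had 27 UMIs in endothelial and 2918 in all other nuclei. Hapln2, a matrix protein of nodes of Ranvier, had 7 and 1088, and Thpo, thrombopoietin, 6 and 910. Adarb2, an RNA-editing family member, had 5 and 1127. These counts are not scaled, and endothelial nuclei held 6.38% of all UMIs. Of 7 tested oligodendrocyte markers, 6 fell and Mal rose by 2.98, with 489 ± 140 CPM in endothelial nuclei. Of 8 tested astrocyte markers, 2 rose and 3 fell. The 10 listed summed to 2756 to 3523 CPM over cortex endothelial units, against 1280 to 1869 CPM in the other cortex nuclei. In hippocampus the sums overlapped, at 2457 to 4276 and 2622 to 3639 CPM. The thresholds of an astrocyte gate of the same form were met by 23 of the 398 endothelial nuclei. The part of astrocyte RNA in the results was not tested. Of 9 microglia markers, 1 was tested and did not pass, none of the 8 choroid plexus and ependymal markers was tested, and of 10 fibroblast markers 5 were tested and 4 were higher, Mgp among them.

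Because the other nuclei include neurons, endothelial nuclei were also set against 1753 other non-neuronal nuclei, gated in the same way: 850 oligodendrocyte, 810 astrocyte, 36 mural, 33 microglia and 24 fibroblast nuclei. Of 5060 genes tested, with all 40 gate genes left out, 1772 were higher (35.0%) and 1765 lower (34.9%), and the median was -0.03. Of 178 tested pathway members, 158 were higher and 11 lower, with a median of 3.37. Among genes higher in the first comparison and tested in both, 1657 of 1864 were also higher here, and 24 genes had opposite calls. Slc2a1 and Slc7a5 differed by 4.79 and 4.80, Abcg2 by 4.66 and Fli1 by 5.94. Here Id3 differed by 1.70, Notch1 by 1.62 and S1pr1, a sphingosine phosphate receptor, by 1.16; in the first comparison their values were 4.02, 3.65 and 3.35. These 3 were picked with their values known. Ednrb, an endothelin receptor, had a value of -0.08 in the first comparison, which did not pass (adjusted p = 0.80), and fell by 2.18 here.

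Region was compared within endothelial nuclei, with 4 hippocampus against 4 cortex units. CPM in this comparison use scaling factors of the endothelial units alone, and those of other nuclei come from a fit of their own. Of 2852 genes tested, 1 passed (0.0351%), and 324 had an unadjusted p under 0.05. DESeq2 also called 1, the same gene. It was Snap25, which encodes a presynaptic membrane fusion protein of neurons. It had 315, 255, 226 and 239 CPM in hippocampus units 0 to 3, against 750, 772, 1004 and 1044 CPM in cortex units 0 to 3. The regions did not overlap, and the log2 fold change was -1.72 ± 0.20 (edgeR quasi-likelihood test, adjusted p = 6.7e-05). Among all other nuclei the mean of Snap25 was 1078 ± 91.9 CPM for hippocampus and 1813 ± 147 CPM for cortex, and the difference of the 2 region effects did not pass (-0.95 ± 0.28; adjusted p = 0.059). Neuronal RNA in endothelial nuclei moved the same way: the 9 pan-neuronal markers summed to 2217 to 10062 CPM over hippocampus and 8213 to 18991 CPM over cortex units, and to 48328 to 58259 and 64516 to 75504 CPM in the other nuclei. Oligodendrocyte RNA moved toward hippocampus: its 9 markers summed to 900 to 1509 CPM over hippocampus and 650 to 831 CPM over cortex endothelial units, with no overlap, and to 2309 to 2975 and 628 to 802 CPM in the other nuclei. These sums are on the scale of the comparison of classes. Of its 3 markers tested between regions 0 passed, 2 had an unadjusted p under 0.05, and the median was 1.04. The part of either RNA in the result was not tested. In nuclei with a gate share of at least 1%, the adjusted p of Snap25 was 1.1e-05. Genes of free RNA were defined as those whose share over all nuclei of a region exceeded 3 times that in endothelial nuclei. Free RNA itself was not measured. With these genes removed, 13 of 2729 genes passed. Snap25 was itself removed by this definition, so that setting did not test it.

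None of the 168 pathway members tested between regions passed, 10 had an unadjusted p under 0.05, and their median was 0.08, against -0.02 over all genes. Over units 1 to 3, 4 of 163 passed, against 98 of all 2517 genes tested there. Pltp, Ramp2 and Slco1c1, an organic anion transporter, were higher in hippocampus by 0.55, 0.61 and 0.61 on the log2 scale (adjusted p = 0.016, 0.037 and 0.016), and the kinase Sgk1 had a value of -1.12 (adjusted p = 0.032). Of the mural markers outside the gate, 7 were tested and 0 passed, with a median of 0.55 and 3 at an unadjusted p under 0.05. Of the 5 genes with the smallest p in each direction, the 9 other than Snap25 had an adjusted p of 0.052. Toward hippocampus they were mt-Co1 (a mitochondrial cytochrome oxidase subunit), the ribosomal proteins Rpl14 and Rpl37, the elongation factor Eef1a1 and Pglyrp1. Pglyrp1 had 613, 739, 704 and 765 CPM in hippocampus units, against 359, 483, 350 and 388 CPM in cortex units (0.84 ± 0.19). Its regions did not overlap. Like Snap25 it was picked by its p in these same units, so the lack of overlap is not separate support. Rpl37 differed by 1.87 ± 0.41, with 175, 497, 503 and 670 CPM in hippocampus units, against 43.9, 118, 205 and 157 CPM in cortex units, and the regions overlapped at unit 0. Toward cortex they were Lmo4, Camk2n1, Syt11 and Dnm1, all used in neurons, with differences of -1.65, -0.99, -1.08 and -1.48. The count of calls depended on the units and nuclei kept. It was 98 over units 1 to 3, 58 higher and 40 lower in hippocampus, 43 at a gate share of at least 1%, and 120 without hippocampus unit 0. Without hippocampus unit 2, cortex unit 2 or cortex unit 3 it was 2, 9 and 3. Without scaling factors beyond library size it was 16, with 11 higher and 5 lower. With a block on the title number it was 111.

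**Figure D4:**
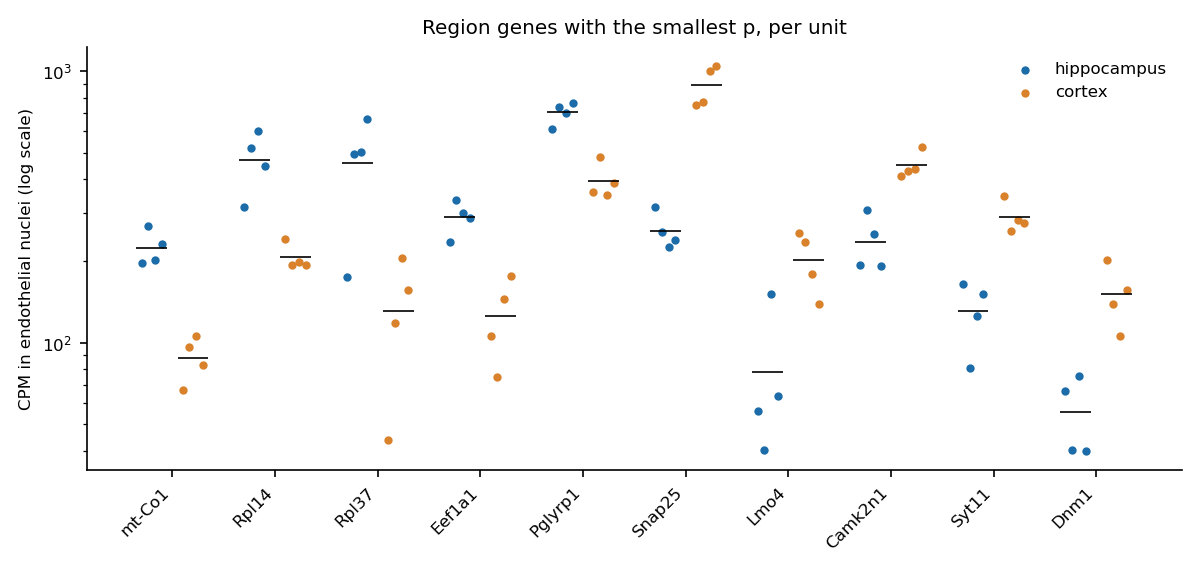
CPM in endothelial nuclei on a log scale, with 4 hippocampus units on the left and 4 cortex units on the right of each gene and the mean as a line. Snap25 passed the test, and the other 9 genes had an adjusted p of 0.052. Hippocampus and cortex units overlapped for Rpl37 and Lmo4 only. The genes were picked by smallest p in these same units, so the lack of overlap is not separate support.

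Whether the region difference of endothelial nuclei was that of the other nuclei was tested as an interaction. Of 11794 genes, 132 passed (1.12%), 118 with a lower and 14 with a higher hippocampus-over-cortex difference in endothelial nuclei. The median interaction over all genes tested was itself -0.10, and -0.47 without hippocampus unit 0. Of the 132, 113 also passed between regions in the other nuclei, where 2492 of 12458 genes tested passed. Of the 83 that were tested between regions in endothelial nuclei, 0 passed there. The count was 288 without hippocampus unit 0, 87 without hippocampus unit 3 and 76 without cortex unit 2, and 65 in the nuclei with at least 2 endothelial gate UMIs per mural gate UMI. Zbtb20, a zinc finger repressor known for its role in hippocampal neurons, had 1733, 1370, 1432 and 1483 CPM in hippocampus endothelial units, against 1347, 1330, 886 and 970 CPM in cortex endothelial units. The mean over the other nuclei was 2168 ± 504 CPM for hippocampus and 189 ± 32.6 CPM for cortex. The region difference was 0.42 ± 0.18 in endothelial nuclei (adjusted p = 0.37) and 3.51 ± 0.18 in the others, and the interaction was -2.99 ± 0.26 (adjusted p = 5.7e-24). Lef1 had 413, 403, 528 and 343 CPM in hippocampus endothelial units, against 408, 440, 383 and 323 CPM in cortex endothelial units. These overlapped, while in the other nuclei the means were 25.2 ± 10.9 CPM for hippocampus and 2.71 ± 0.827 CPM for cortex. Tmcc3, a transmembrane coiled-coil gene, and Nrp1, a VEGF and semaphorin co-receptor, had interactions of -2.19 and -1.83. Cd34, a sialomucin of vessels, ran the other way at 1.87: its mean was 521 ± 50.6 CPM for hippocampus and 427 ± 80.8 CPM for cortex endothelial nuclei, against 26.9 ± 8.26 and 78.9 ± 1.78 CPM in the other nuclei.

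**Figure D5:**
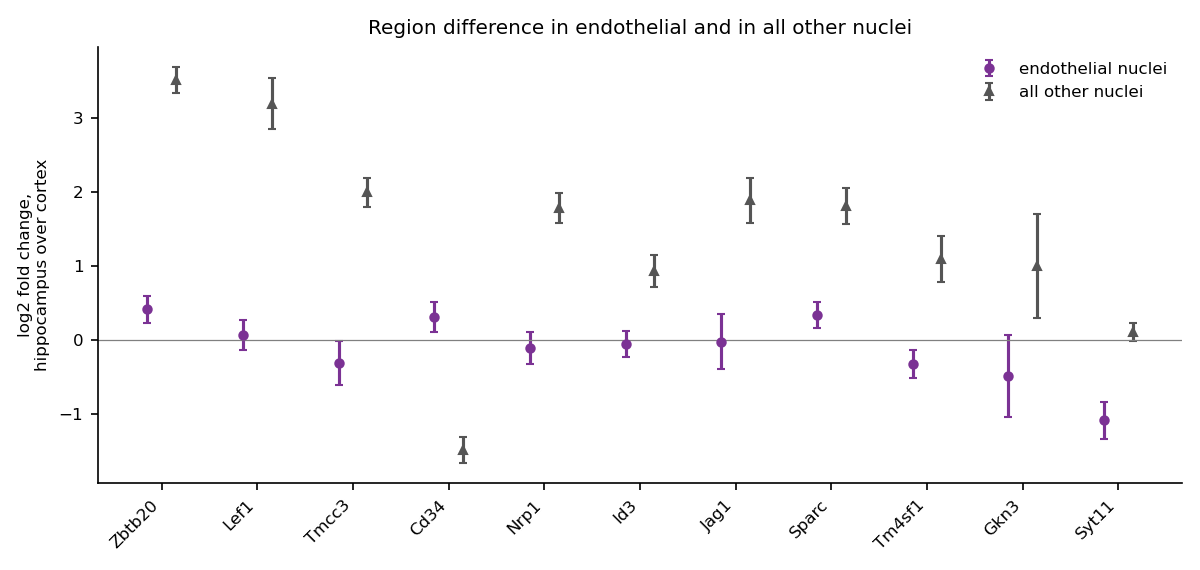
Log2 fold change of hippocampus over cortex in endothelial (circles) and all other nuclei (triangles), with SE as bars, for 11 genes whose interaction passed and that were tested in both. The endothelial estimates lie nearer 0 than those of the other nuclei, except for Syt11.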

How the data were processed

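Nuclei of 10 DroNc-seq libraries were analysed. The authors deposited 1 table of UMI counts, unnormalised, with 23589 genes and 13313 nuclei. Per the submitters' processing notes, STAR 2.4.0a24, Seurat and mm10 were used; the roles of these tools and the counting settings are not given in the sources used here. The 1689 columns whose prefix matched no labelled sample were not used. Total counts ran from 1443244 to 4407856 UMIs per unit, and intervals cover counting error only. Members, gates and gene lists were chosen with earlier results of these data known.

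UMIs were added up within each class and unit, and CPM computed from the total over all genes times the TMM factor of the comparison in question; CPM pooled over nuclei (gate genes and Nid1) are not scaled. edgeR 4.0.16 (R 4.3.3) was run with TMM scaling, its default filter on low counts and the quasi-likelihood test, with Benjamini-Hochberg adjustment over all genes tested and a threshold of 0.05. Every adjusted p in the text is from it. The unit was a term when classes of nuclei were compared and in the interaction, and regions were compared without it. DESeq2 1.42.0 was an alternative. Shares were compared by exact permutation (scipy 1.17.1). Doublets were called per library with scrublet in scanpy 1.11.5 at a score of 0.2 (259 nuclei, 2.23%), and were kept except in 1 alternative. Same-numbered units of hippocampus and cortex, 0 to 3, correlated at 0.398, 0.0614, 0.0468 and 0.0396 in their deviations over 2852 genes. Hippocampus unit 0 correlated with cortex units 1 to 3 at -0.155, -0.232 and -0.0831. The numbers were not taken as pairs in the chosen fit, so what the units numbered 0 share stays in its spread. With a block on the title number, 111 genes passed between regions, against 1. Genes were named by rule: the 15 largest rises and 6 largest falls at 50 CPM or more, up to 5 of each list by smallest p, for regions the calls or else the 5 smallest p per direction, and the 5 smallest p of the interaction. Other list members are named as examples, chosen with their values known. Coordinates are from a GENCODE annotation of GRCm38, matched by symbol for 399 of 408 genes. Tests were checked on simulated counts. Alternatives covered scaling, filters, depth, gates, doublets, free RNA, each unit left out, and, chosen after seeing the data, a gate share of at least 1% and a mural sum of at most 1 in 2 of the endothelial sum.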

Additional observations from a re-analysis of the deposited data

Results flagged for a closer look

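Within 1 region, 12 of 204 groups of 4 units had a unit far from the other 3, and chance flags about 1 in 20 such groups. Of the 12, 10 were units numbered 0. In cortex unit 0, Meg3 stood at 11537 CPM (other units 4211.6 to 5096.6), Snhg11 at 5618.9 CPM (2292.6 to 2567.2), Abcc5 at 257.2 CPM (71.492 to 94.648), Rpl14 at 240.38 CPM (193.07 to 198.26) and Thpo at 9.2683 CPM (0 in the others), while Slc9a3r2 was lowest at 451.83 CPM (759.06 to 818.91). In hippocampus unit 0, Adarb2 stood at 3.501, Thpo at 7.002 and Coro6 at 21.006 CPM, each at 0 in the other hippocampus units. These 3 values are 1, 2 and 6 UMIs, and Thpo in cortex unit 0 is 4 UMIs, while 1 UMI is worth 8.19 to 22.8 CPM in the other hippocampus units and 6.50 to 10.5 CPM in the other cortex units, so these 4 values do not set a unit apart. Cortex unit 0 also had the highest share of endothelial nuclei among cortex units, 5.7664% (2.3256% to 2.8281%). In cortex unit 3, Acvrl1 was lowest at 243.98 CPM (359.15 to 370.46), and in hippocampus unit 3, Cxcl12 was lowest at 1605.5 CPM (2464.7 to 2597.2).

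For 13 genes named in the text or its lists, the log2 difference of hippocampus over cortex in endothelial nuclei differed from that in all other nuclei by edgeR's interaction test. The median of this interaction over all 11794 genes tested was -0.10. For 12 of the 13 genes the region difference was lower in endothelial nuclei. Besides Zbtb20 (-2.9895), Lef1 (-3.0229), Tmcc3 (-2.1852) and Nrp1 (-1.8252), these were Kdr (-1.5575, adjusted p = 0.0173), Slc38a5, an amino acid carrier (-2.0791, adjusted p = 0.0169), Jag1 (-1.6997, adjusted p = 0.0264) and Sparc (-1.3941, adjusted p = 0.00011). Tm4sf1 (-1.309, adjusted p = 0.0128), Gkn3 (-1.3677, adjusted p = 0.04996), Id3 (-0.958, adjusted p = 0.0261) and Syt11 (-1.1479, adjusted p = 0.0264) were also lower. Cd34 (1.8703) was higher. None of the 13 passed between regions within endothelial nuclei, where Snap25 was the only call. The other nuclei contain some vascular RNA, and its part in these differences was not tested.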

How the results depend on the processing

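The named genes of the comparison with all other nuclei, 92 in all, kept their direction and call in each of 19 settings that could test them, as did the 5 named interaction genes. Both sets were picked by large fold or small p in the chosen fit, so this does not describe the other calls. None of the 10 region genes changed sign, and 9 passed the threshold in at least 1 of 13 settings. The count of changed genes against non-neuronal nuclei was 6372 with no filter, against 3537. Region calls within endothelial nuclei, 1 in the chosen fit, numbered 11 with doublet calls removed, 13 with genes of free RNA removed, 16 by library size only, 38 in nuclei of at least 600 UMIs, 43 at a gate share of at least 1%, 44 with a stricter gate, 86 with no filter and 98 over units 1 to 3. Snap25 was among the calls of each of these settings except that with genes of free RNA removed. There it was itself removed before testing, so it could not be called. With a replicate block on the title number, the calls numbered 111 of 2852 genes, with 1 of 168 pathway members among them. Leaving out 1 unit gave 1 to 120 calls: 120 without hippocampus unit 0, 2 without hippocampus unit 2, 9 without cortex unit 2 and 3 without cortex unit 3. Interaction calls, 132 in the chosen fit, numbered 63 by DESeq2, 65 with a mural sum of at most 1 in 2, 49 with no replicate block, and 76 to 288 with 1 unit left out: 76 without cortex unit 2, 87 without hippocampus unit 3 and 288 without hippocampus unit 0. The difference in share turned to -0.2385 with a stricter gate and -0.2406 with libraries kept separate, and ran from -0.2992 to 0.8701 with 1 unit left out. It reversed without cortex units 1, 2 or 3 and without hippocampus units 0 or 3. The causes were not tested. Units held 24 to 105 endothelial nuclei, and at 39543 to 419899 endothelial UMIs per unit only 2852 genes could be tested between regions.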
